A study of Mus musculus with 6 samples.

Results

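Hox genes encode homeodomain transcription factors and lie in 4 clusters, Hoxa to Hoxd, numbered from position 1 to position 13. Their levels were examined in 6 arrays of Flk1-positive cells, for 33 of the 18193 genes measured. The members were the genes whose annotated symbol was Hoxa, Hoxb, Hoxc or Hoxd followed by a number alone, each represented by its brightest probe set on average over the 6 arrays. They comprised 9 Hoxa, 9 Hoxb, 7 Hoxc and 8 Hoxd genes, out of 39 such genes in RefSeq. The others were not analysed here.

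The cells came from ER71 A17C, a mouse embryonic stem (ES) cell line of 129P2/Ola background that carries a doxycycline-inducible Etv2 cassette (ER71 A2Lox.cre). All 6 samples carried the cassette and were grown as embryoid bodies to day 3.5. The 3 induced samples received doxycycline at 0.5 microg/ml for the last 12 hours, from day 3, and the 3 control samples were untreated according to the series' design text, although the treatment field repeats the doxycycline text for all 6. Flk1-positive cells were then sorted, and no label says whether the replicates came from separate cultures, so p-values measure no more than how far these samples spread, and that spread may be technical. The line is a single one, with no doxycycline-treated line without the cassette, so an effect of doxycycline and of Etv2 cannot be told apart.

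Within a cluster, Hox genes are switched on in the order in which they lie on the chromosome, low-numbered genes first. In the mouse embryo the first of them come on in the primitive streak and the mesoderm that leaves it, and higher-numbered genes follow later and further back along the body. Hoxb1 and its neighbour Hoxb2 are among the early genes in posterior mesoderm and later help to pattern the hindbrain, while the genes of positions 9 to 13 act in the lumbar, sacral and tail region and in the limbs.

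The promoters of 3 members are shown because their values differ in the results that follow. Hoxb1 varied most between the arrays, Hoxd1 is a position 1 gene of another cluster, and Hoxb4 is a gene of the Hoxb cluster that hardly varied. Each window runs from 250 bases before to 50 bases after the gene's start, 5′ to 3′ on the plus strand, from RefSeq (GRCm38.p6), at chr11:96365508-96365807 for Hoxb1, chr2:74762730-74763029 for Hoxd1 and chr11:96318017-96318316 for Hoxb4. Capitals mark any match to 4 motifs searched on both strands.
Hoxb1: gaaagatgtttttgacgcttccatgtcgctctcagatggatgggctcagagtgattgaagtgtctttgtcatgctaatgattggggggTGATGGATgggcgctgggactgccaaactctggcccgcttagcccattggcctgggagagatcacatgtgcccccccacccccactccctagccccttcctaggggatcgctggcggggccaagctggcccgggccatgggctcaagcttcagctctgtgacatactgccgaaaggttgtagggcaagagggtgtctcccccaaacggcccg
Hoxd1: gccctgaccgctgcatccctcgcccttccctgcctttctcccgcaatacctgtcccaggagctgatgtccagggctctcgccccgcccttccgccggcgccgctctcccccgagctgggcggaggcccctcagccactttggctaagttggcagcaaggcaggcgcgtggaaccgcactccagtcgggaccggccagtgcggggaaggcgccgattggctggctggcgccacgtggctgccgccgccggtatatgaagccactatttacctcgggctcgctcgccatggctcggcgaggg
Hoxb4: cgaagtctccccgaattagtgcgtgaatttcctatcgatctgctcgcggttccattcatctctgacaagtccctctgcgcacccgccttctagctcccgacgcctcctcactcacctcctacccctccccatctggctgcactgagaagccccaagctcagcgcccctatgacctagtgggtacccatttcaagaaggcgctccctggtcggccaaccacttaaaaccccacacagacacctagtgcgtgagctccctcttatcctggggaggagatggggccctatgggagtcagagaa

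The capitals in Hoxb1 are a match to TGATNNAT, the shape of a joint HOX and PBX site, beginning at base 89 of the window, at position -162 relative to the gene's start. Such a match was found in 3 of 21 windows of 19 Hox members, against 8.85% of the 32851 windows of the table. No match stood in the Hoxb1, Hoxd1 or Hoxb4 windows for TTTATG (CDX factors), CCGGAA (ETS factors, the family of Etv2) or CTTTGAT (TCF and LEF factors). These motifs were found in 3, 2 and 1 of the 21 Hox windows and in 11.9%, 14.9% and 3.73% of all windows. A match describes the letters of the window and not binding.

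Etv2, the induced gene, stood at a log2 level of 9.92, 8.59 and 10.71 in controls 1, 2 and 3 and of 13.27, 13.28 and 13.36 in induced samples 1, 2 and 3. The groups did not overlap, and the induced mean was higher by 3.56 ± 0.44 (SE) on the log2 scale, with an adjusted p of 0.388 over all genes in limma. The call changed with the setting, and the limma adjusted p was under 0.05 in 3 of 18 alternatives. It was 0.0456 with array quality weights, 0.0055 without control 2 and 2.8e-04 with Kdr as a covariate. It was 0.0546 with the replicate block, 0.982 without induced 1 and 0.9996 with eBayes trend and robust settings. Kdr, the gene of the sorted protein Flk1, was at 10.02, 8.40 and 10.97 in the controls and 9.56, 9.36 and 10.52 in the induced samples, so control 2 was the lowest and the groups overlapped. Array medians lay between 7.34 and 7.40. The array of induced 2 had the highest median and a lower quartile of 6.06, against 5.96 to 6.003 in the others.

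**Figure D1:**
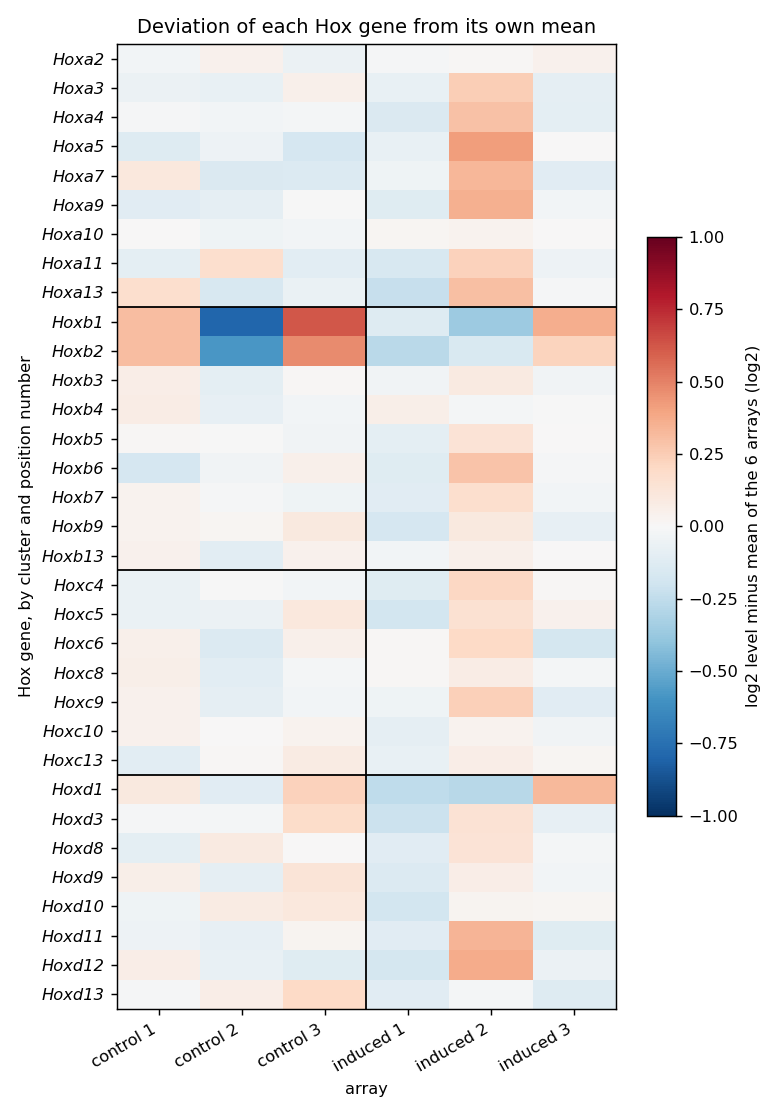
The log2 level of each of the 33 Hox genes (rows, by cluster and position number) minus that gene's mean over the 6 arrays (columns, control to the left of the line), in log2 units. The strong colours sit in Hoxb1 and Hoxb2, lowest in control 2 and highest in control 3, while 21 of the 33 genes have their highest value in induced 2.

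Two-sided comparison of induced with control samples asked whether 12 hours of Etv2 induction moved the Hox genes. No Hox gene passed the test. In limma 0 of 33 members passed an adjusted p of 0.05 over all genes (0.00550% of all genes did), and 0 of 33 had an unadjusted p under 0.05 (1.71% of all genes). With the replicate number as a block the counts were also 0 and 0. The 95% interval of the difference included 0 for all 33 members. Outside Hoxb1 and Hoxb2 the bounds ran from -0.54 to 0.53, so larger changes of those probe set values lie outside their intervals. Without detection calls this does not extend to the transcripts of dim members.

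**Figure D2:**
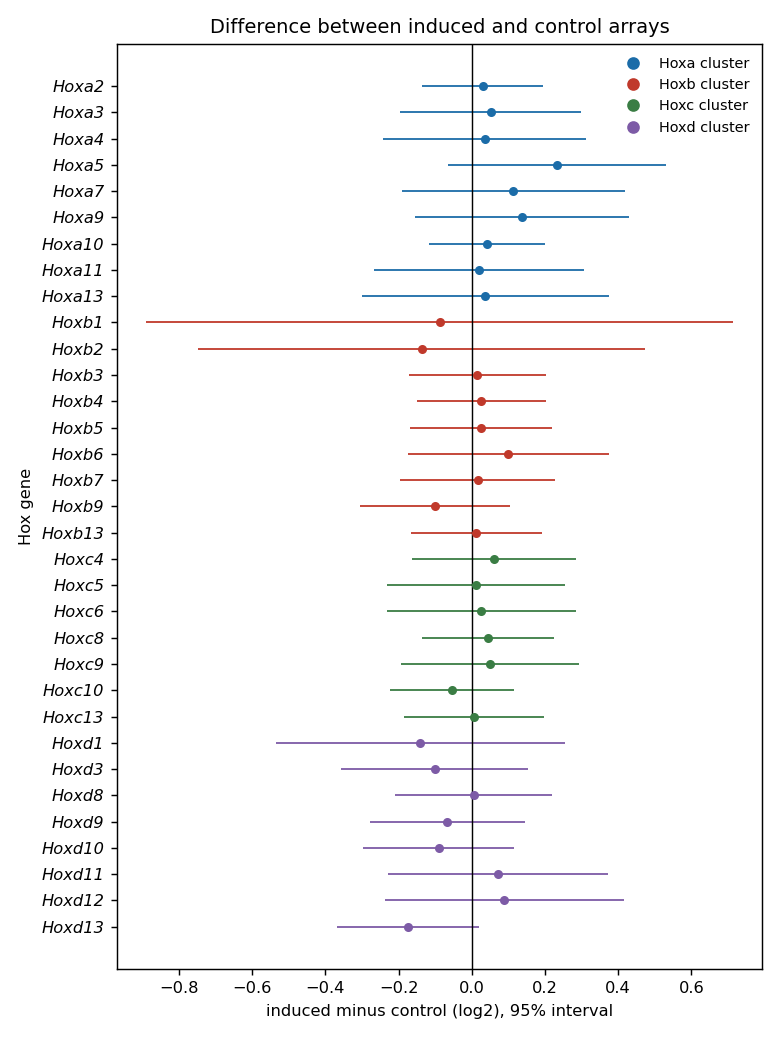
Difference between induced and control samples for each Hox gene on the log2 scale, with its 95% interval from limma; colours mark the cluster. All 33 intervals include 0, and those of Hoxb1 and Hoxb2 are the widest.

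Hoxb1, the position 1 gene of the Hoxb cluster, stood at 8.80, 7.70 and 9.11 in controls 1, 2 and 3 and at 8.36, 8.13 and 8.85 in induced samples 1, 2 and 3. Control 2 was the lowest and control 3 the highest, so the controls enclosed all induced values. The difference was -0.087 ± 0.35 (SE), with a 95% interval of -0.89 to 0.71. It was -0.51 without control 2 and 0.20 without control 3, so its sign rested on these arrays.

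Hoxb2, next to Hoxb1 at the same end of the cluster, stood at 8.78, 7.88 and 8.94 in the controls and at 8.19, 8.31 and 8.68 in the induced samples. Again the controls enclosed the induced values, with control 2 lowest and control 3 highest. Its difference was -0.14 ± 0.26 (SE), with a 95% interval of -0.75 to 0.47, and it was -0.46 without control 2 and 0.067 without control 3. Without control 2, 2 of 33 members had an unadjusted p under 0.05 in limma and 0 an adjusted one. The share of all genes at that unadjusted cut was not computed for this fit, so the count is not read as a result about the Hox genes. These intervals are wide because the controls were spread, with an SD of 0.74 for Hoxb1 and 0.57 for Hoxb2 (n = 3), against 0.37 and 0.26 in the induced samples.

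Hoxd13, which patterns digits, was the member with the lowest difference. It stood at 7.22, 7.30 and 7.43 in the controls and at 7.12, 7.21 and 7.10 in the induced samples, so the groups did not overlap. Its difference was -0.17 ± 0.084 (SE), with an unadjusted p of 0.0728 and an adjusted p of 0.9995. It was the 1 member of 33 that lay wholly below the controls, where 3.91% of all genes did, and 0 of 33 lay wholly above, where 2.88% did. The other Hoxd13 probe set gave 6.48, 6.41 and 6.42 in controls and 6.35, 6.74 and 6.53 in induced samples, with overlapping groups and a difference of 0.10.

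Hoxa5, a gene of neck and upper trunk patterning, had the highest difference. It stood at 8.64, 8.71 and 8.59 in the controls and at 8.69, 9.18 and 8.77 in the induced samples, and the high value of induced 2 stood apart while induced 1 lay below control 2. The difference was 0.23 ± 0.13 (SE) with an unadjusted p of 0.107, and 0.085 without induced 2. Hoxa9, at 0.14 ± 0.13, and Hoxa7, at 0.11 ± 0.13, came next. Both were also highest in induced 2, at 8.35 each, against 7.86 to 7.98 for Hoxa9 and 7.88 to 8.12 for Hoxa7 in the other 5 arrays. Without induced 2 their differences were -0.0089 and -0.023. The second Hoxa9 probe set had a difference of -0.064.

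The remaining 25 members are described by their ranges. Differences ran from 0.020 to 0.23 in the Hoxa cluster, from -0.14 to 0.10 in Hoxb, from -0.054 to 0.061 in Hoxc and from -0.17 to 0.089 in Hoxd, each range including the genes already described. By position, medians were 0.020 at positions 1 to 4, 0.025 at 5 to 8 and 0.016 at 9 to 13. The median over the 33 members was 0.024, beside 0.0026 over all genes.

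The sign of these small differences rested on 1 array and on the scaling. As deposited, 24 members were higher and 9 lower, which became 14 and 19 after quantile normalization, 17 and 16 after centring each array on its median, 8 and 25 with array quality weights, and 6 and 27 without induced 2, where the median was -0.057. The share of all genes that were higher was 51.1% as deposited, 50.1% after quantile normalization, 41.8% after centring, 47.3% with the weights and 44.6% without induced 2. Induced 2 held the highest of the 6 values in 21 members, or 63.6%, beside 52.9% of the genes whose mean lay below the median of all genes and 10.6% of those above it. Of the 33 members 29 had a mean below that median of 8.25. In pairs of equal replicate number 5, 29 and 12 of the 33 members were higher in the induced sample of numbers 1, 2 and 3. The share of all genes was not computed for each pair, so these counts are not read as a result about the Hox genes.

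The members differed in how much they varied over the 6 arrays. Hoxb1 spanned 1.42 on the log2 scale, or 2.67-fold, and its SD was larger than that of 99.1% of all genes. Hoxb2 spanned 1.06, or 2.08-fold, with an SD above that of 98.1% of genes. Hoxd1 came next with 0.60, or 1.52-fold (93.7%). The other 30 members spanned at most 0.59 (Hoxa5), with a median of 0.33, beside 0.32 over all genes.

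The step within the Hoxb cluster fell between position 2 and position 3. Hoxb3 stood at 8.35, 8.19 and 8.29 in the controls and at 8.25, 8.38 and 8.25 in the induced samples, a span of 0.19. Hoxb4, which promotes expansion of blood stem cells when overexpressed, stood at 6.63, 6.48 and 6.53 in the controls and 6.62, 6.54 and 6.56 in the induced samples, a span of 0.15. The second probe sets of Hoxb3 and Hoxb4, both dimmer, spanned 0.28 and 0.20. The 7 Hoxb members other than Hoxb1 and Hoxb2 spanned 0.15 to 0.45. No detection calls were analysed here, so a flat series shows that the probe set did not vary and not whether the transcript was present. Levels of different probe sets are not compared as amounts.

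Hoxb1 and Hoxb2 rose and fell with Kdr from array to array. Kdr was used as a measure over the 6 arrays because its protein defined the sort and its level varied within both groups. In both groups Kdr was lowest in replicate number 2 and highest in number 3. The SE of its group difference was 0.59, and 0.26 with the replicate number as a block. A relation to Kdr and one to the replicate number therefore cannot be fully told apart. The slope of each gene on Kdr was fitted with limma over 18192 genes, in log2 units per log2 unit of Kdr. It was 0.57 ± 0.055 (SE) for Hoxb1, with a 95% interval of 0.45 to 0.69 and an adjusted p of 7.6e-04. It was 0.42 ± 0.063 for Hoxb2, with an interval of 0.28 to 0.56 and an adjusted p of 0.0070.

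These 2 of 33 members, or 6.06%, were related to Kdr at an adjusted p under 0.05, where 3.41% of all genes were. Both rose with Kdr, as 1.58% of all genes did, and 0 of 33 fell, as 1.82% did (limma, adjusted over 18192 genes). At an unadjusted p under 0.05 there were 3 of 33 members, the other being Hoxd1, against 13.7% of all genes. The median slope was 0.0059 over the members and 0.0050 over all genes.

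Over the 6 arrays Hoxb1 had a Pearson r of 0.982 with Kdr (exact permutation p = 0.0014, the smallest 6 values allow) and a Spearman rho of 1 (exact permutation p = 0.0028), so the arrays came in the same order by either gene. Hoxb2 had r = 0.945 (exact permutation p = 0.0083) and rho = 0.886 (p = 0.0333). These are 2 of the 8 relations computed in this way, and the p-values adjusted over all genes are those of the slopes. Without control 2 and control 3, the arrays farthest from the median of Kdr, r was 0.938 for Hoxb1 and 0.802 for Hoxb2. Within the groups r was 0.987 and 0.988 for Hoxb1 in controls and induced samples, and 0.974 and 0.919 for Hoxb2, from 3 arrays each and with no test; values from 3 arrays can be extreme, as for Hoxa5, with -0.99988 in the controls and -0.513 in the induced samples.

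**Figure D3:**
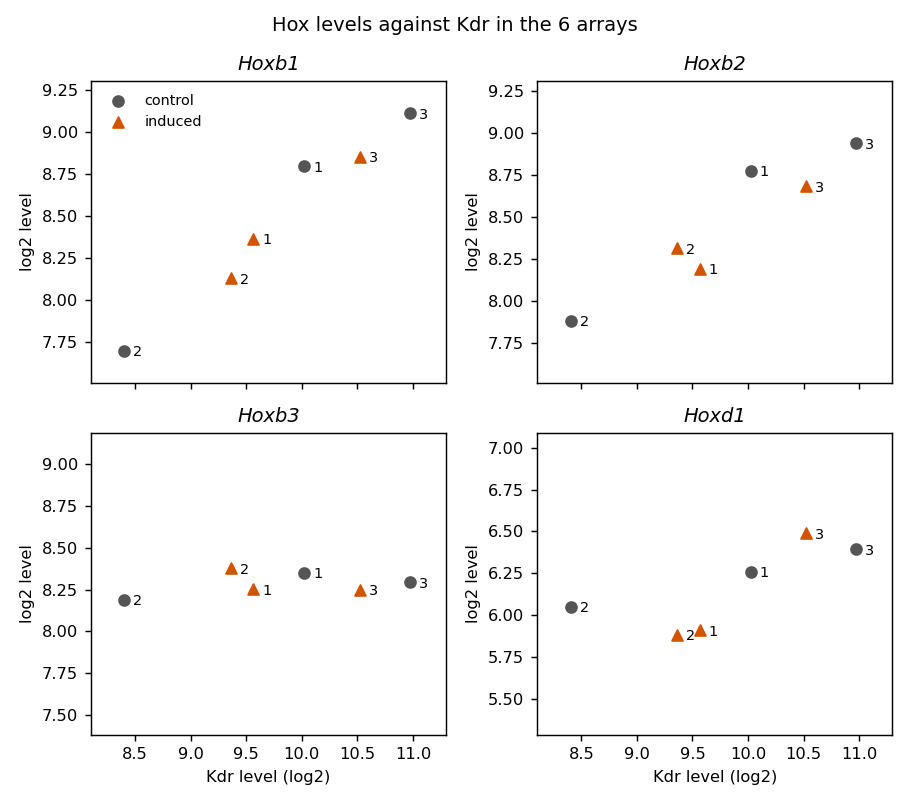
Log2 level of Hoxb1, Hoxb2, Hoxb3 and Hoxd1 against the log2 level of Kdr in the 6 arrays; circles are controls, triangles induced samples, numbers the replicates, and all vertical axes span the same number of log2 units. Hoxb1 climbs from 7.70 to 9.11 as Kdr goes from 8.40 to 10.97, Hoxb2 from 7.88 to 8.94, and Hoxb3 stays between 8.19 and 8.38.

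With the group as a further term the slopes were 0.57 for Hoxb1 (adjusted p = 0.0010) and 0.42 for Hoxb2 (0.0063). With the replicate number as a block they were 0.55 and 0.60, and neither passed in limma (adjusted p = 0.127 and 0.158), in a fit that called 36 of all genes. Without control 2 the adjusted p was 0.0220 for Hoxb1 and 0.0922 for Hoxb2, and without control 3 it was 0.0147 and 0.0896, so the call for Hoxb2 was lost without either array while its slope stayed at 0.42. With Kdr as a covariate, a fit chosen after the data were seen, the difference between induced and control samples was -0.096 ± 0.091 (SE) for Hoxb1 and -0.14 ± 0.099 for Hoxb2 (limma adjusted p = 0.984 for the lowest of all 33 members).

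Hoxd1, the position 1 gene of the Hoxd cluster, stood at 6.26, 6.05 and 6.39 in the controls and at 5.91, 5.88 and 6.49 in the induced samples. It was highest in induced 3 and control 3, which had the highest Kdr, but induced 1 and induced 2 lay below control 2. Its slope on Kdr was 0.21 ± 0.073 (SE), which did not pass in limma (adjusted p = 0.211), and r was 0.747 (exact permutation p = 0.0944). It was 0.9885 without control 2 and control 3, and 0.9997 and 0.992 within the controls and the induced samples, with no test. Without control 2 the slope was 0.38 (adjusted p = 0.0873), and with the replicate block it was -0.032 (adjusted p = 0.944).

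No other member had a slope that passed. Hoxb3 had 0.024 ± 0.048 (SE), with a 95% interval of -0.083 to 0.13, and Hoxb4 0.022 ± 0.046, with an interval of -0.081 to 0.13, both wholly below the interval of Hoxb2. Of the 31 members other than Hoxb1 and Hoxb2, 30 had an upper bound below the lower bound of Hoxb2, and 30 had an interval that included 0; Hoxd1 was the exception in both counts. Slopes ran from -0.12 to 0.023 in the Hoxa cluster, from -0.024 to 0.049 in Hoxc, and from -0.046 to 0.065 in the Hoxd members other than Hoxd1. The lowest adjusted p among the 30 was 0.474, for Hoxa11. All these slopes and bounds come from the fit without the replicate block. With the block the slopes were 0.38 ± 0.12 (SE) for Hoxa7, 0.33 ± 0.12 for Hoxa9 and 0.26 ± 0.16 for Hoxa5. Hoxb3 had 0.18 ± 0.11 and Hoxd13 0.085 ± 0.15, beside 0.55 ± 0.12 for Hoxb1 and 0.60 ± 0.15 for Hoxb2. The separation of Hoxb1 and Hoxb2 from the other members is therefore given only for the fit without the block.

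**Figure D4:**
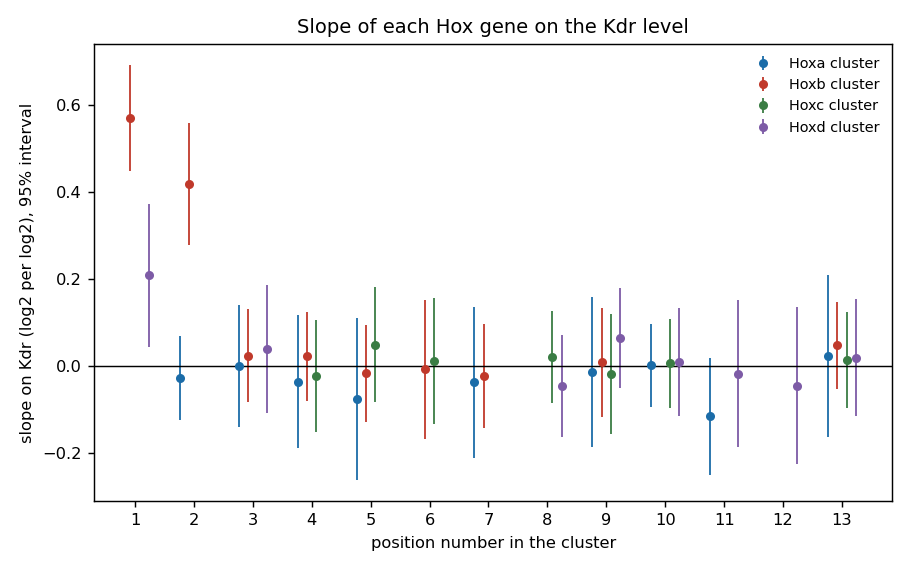
Slope of each Hox gene on Kdr (log2 units per log2 unit of Kdr) with its 95% interval from limma, against the position number in the cluster. The fit has no replicate block, and colours mark the cluster. Hoxb1 at 0.57 and Hoxb2 at 0.42 stand above 0, Hoxd1 is at 0.21, and the other 30 genes have intervals that include 0.

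Genes that work with Hox proteins or lie beside the clusters give the setting. The relations to Kdr given for these and for the cell type markers come from the fit without the replicate block: 38 of 139 genes over all lists passed there, and 4 of them (Dll3, Sox2, Sox17 and Trh) also passed with the block, with the same sign of slope in 37 of the 38 (limma). Wnt3 was the exception, with -0.10. PBX, MEIS and PKNOX proteins are homeodomain partners that bind DNA together with HOX proteins. Of 8 measured 0 changed with induction, and 2 rose with Kdr: Pbx3, with a slope of 0.39 ± 0.055 (SE) and a limma adjusted p of 0.0053, and Pknox2, with 0.51 ± 0.060 (adjusted p = 0.0025). Pbx3 was at 12.42, 11.64 and 12.62 in controls and 12.31, 12.19 and 12.63 in induced samples, lowest in control 2 as Hoxb1 was. Of the 6 ParaHox genes, the relatives that include the Cdx activators of Hox clusters, 0 passed in either fit. Cdx2 was at 8.72, 8.58 and 8.62 in controls and 8.75, 8.82 and 8.89 in induced samples, which did not overlap, with a difference of 0.18 ± 0.079 (SE) and an adjusted p of 0.9995. Gsx2, whose groups also did not overlap, went the other way, at 6.50, 6.27 and 6.48 in controls and 6.22, 6.25 and 6.198 in induced samples, a difference of -0.20 ± 0.086 (SE) with the same adjusted p. Gsx1 was at 7.29, 7.23 and 7.34 and at 7.27, 7.21 and 7.19.

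Of the 17 neighbours of the clusters measured, 1 rose with Kdr and 1 fell. Evx1, a homeobox gene of the primitive streak beyond Hoxa13, rose with a slope of 0.31 ± 0.058 (SE; limma adjusted p = 0.0185), while no Hoxa member was related to Kdr. Evx2, its counterpart beyond Hoxd13, had -0.0052 ± 0.046. Snx10, a sorting nexin gene on the other side of the Hoxa cluster, fell with a slope of -0.25 ± 0.044 (adjusted p = 0.0152).

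Of the 14 signalling genes known to act on Hox clusters 2 rose with Kdr. Cyp26a1, whose enzyme breaks down retinoic acid, had a slope of 0.71 ± 0.070 (SE; limma adjusted p = 8.6e-04), and Wnt3, a ligand of the primitive streak, had 0.37 ± 0.084 (adjusted p = 0.0455). Of the 24 chromatin regulators Cbx7, a Polycomb subunit, fell with a slope of -0.45 ± 0.066 (adjusted p = 0.0058), and 23 did not pass. Across the genes of these 5 lists 0 changed with induction in limma after adjustment, and 1 of 69 had an unadjusted p under 0.05.

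Some markers of the cells in the sort were also related to Kdr. Genes rose with Kdr in 7 of 13 primitive streak and early mesoderm markers other than Kdr (Nodal fell), 7 of 11 posterior and presomitic markers and 6 of 10 lateral plate and extraembryonic markers, while 6 of 11 pluripotency markers fell (limma, adjusted over all genes). Of all genes 1.58% rose and 1.82% fell. Tbx6, which rose, is counted in both the streak and the posterior list, so the lists are not separate. The mean log2 level of the streak and early mesoderm list, with Kdr among its 14 measured genes, was 10.97, 10.18 and 11.04 in the controls and 10.62, 10.48 and 10.85 in the induced samples. That of the pluripotency list was 10.65, 11.20 and 10.36, and 10.95, 10.91 and 10.71. With the mean of the 13 streak and early mesoderm genes in place of Kdr, the same 2 members, Hoxb1 and Hoxb2, passed (limma adjusted p = 0.0034 and 0.0091). Of these 13 genes 7 themselves rose with Kdr over the same 6 arrays, so this fit is not independent of the one on Kdr. In bulk samples fewer cells of a type and less RNA per cell cannot be told apart.

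Neural cells also use Hoxb1 and Hoxb2, and their markers gave mixed values. Of 11 hindbrain and neural tube markers 2 rose with Kdr, Irx3 (slope 0.68 ± 0.098, SE; limma adjusted p = 0.0057) and Egr2 (0.41 ± 0.089; 0.0376), and Sox3 fell (-0.64 ± 0.11; 0.0103). The neural genes Sox1, Pax6 and Neurog1, picked after their values were seen, had slopes of -0.045, 0.0059 and -0.020, none of which passed. The median slope over the 11 markers was 0.019. The mean of the list ran from 6.94 to 7.11 in controls and from 6.86 to 7.05 in induced samples. Of 10 endoderm markers 3 rose and 1 fell, with list means of 8.41 to 8.67 in controls and 8.58 to 8.71 in induced samples. Of 11 endothelial and blood markers 1 rose with Kdr, with means of 7.02 to 7.41 and 7.59 to 7.78, Etv2 included. The part of these other cell types in the Hoxb1 and Hoxb2 values was not tested.

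Of the 11 members with several probe sets, 3 had differences between induced and control samples of the same sign in all of them and 8 had both signs. Hoxb1, Hoxb2 and Hoxd1 each had 1 probe set with a single symbol, so no second probe set bears on them.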

How the data were processed

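RNA of 6 samples was hybridised to Affymetrix mouse arrays. The authors deposited log2 expression values per probe set and, per the submitters' processing notes, RMA was the method; no source used here gives its version. The log2 values lay on a common scale, and scanner files were not analysed here. Of 45101 probe sets, 34958 carried a single symbol in the GEO platform annotation; without 13 control probe sets they gave 18193 genes, each read by its brightest probe set, and 932 with several symbols and 9211 without an entry were left out. No filter on dim genes was applied.

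Groups and slopes were fitted with limma 3.58.1 in R 4.3.3 (lmFit, eBayes), as two-sided tests; p-values were adjusted by Benjamini-Hochberg across all genes, with a threshold of 0.05. An exact permutation test of 3 against 3 values cannot go below 0.1. The scripts were tested on simulated data. The number of arrays limits the precision.

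Members and lists were chosen with earlier results of these data known. The genes named are Etv2, Kdr, and Hox members past a threshold, above the median level, among the 3 largest differences either way, or with groups that do not overlap; from other lists, members past the threshold or else the 2 brightest. Hoxb4, Gsx2, Evx2, Dll3, Sox2, Sox17, Trh, Nodal, Sox1, Pax6 and Neurog1 were added after their values were seen.

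Titles share replicate numbers between groups. Deviations from the group means correlated at r = 0.16, 0.22 and 0.41 for numbers 1, 2 and 3. Blocked values are therefore given where they change a call of a Hox member, and for the other lists as counts. The reported fits have no block. Control 2 with induced 1 (0.30) and control 1 with induced 3 (0.24) correlated more than numbers 1 and 2 did, but less than number 3. No label gives a shared culture. Alternatives were the replicate block, other scalings, probe set rules, weights, a dim-gene filter, eBayes settings and samples left out.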

Additional observations from a re-analysis of the deposited data

How the results depend on the processing

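In the comparison of induced with control samples 0 Hox members passed under each of the 18 alternatives, including a filter that left 4 of them, and their median difference ran from -0.083 to 0.076. The number of all genes changed, 1 as reported, was 2 with the replicate block, 6 with array quality weights, 5 with Kdr as a covariate, and 0 without both samples of number 1 or of number 3; it ran from 0 to 3 with a single sample left out. Of Hox members related to Kdr, 2 as reported, 0 passed with the replicate block and without both samples of number 2 or of number 3, and 1 to 2 with a single sample left out. All genes related to Kdr, 620 as reported, numbered 36 with the replicate block, 361 with the mesoderm mean in place of Kdr, 275, 230 and 0 without both samples of numbers 1, 2 and 3, and 147 to 921 with a single sample left out. The cause of these changes was not tested. Fits with samples left out also rest on fewer samples. The slope of Hoxb1 on Kdr ran from 0.49 to 0.66 over its 14 alternatives and that of Hoxb2 from 0.40 to 0.60, and they passed in 11 and 9 of these. The block changed no other call for a Hox member. No called value of a Hox member changed sign, while among the other lists the called slope of Wnt3 did with the block. Leaving out both samples of a number in the Kdr fits, and the fit with Kdr as covariate, were added after seeing the data. Background compresses the array levels of dim genes, which 29 of the 33 members were.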

Other observations

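Probe sets outside the 33 members also read transcripts of the clusters. The probe set annotated to both Hoxb8 and Hoxb7 spanned 0.21 on the log2 scale over the 6 arrays, with a mean of 5.38. The pair annotated to both Hoxd4 and Hoxd3 spanned 0.41 and 0.21. Evx1os, the antisense-named neighbour of Evx1, stood at 9.98, 9.29 and 10.41 in controls and at 9.81, 9.62 and 10.18 in induced samples, lowest in control 2 and highest in control 3, as Hoxb1, Hoxb2 and Kdr were. Hoxb5os spanned 0.47, and it was highest in control 2, at 7.66. These were chosen after their values were seen.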
